A study of Rattus norvegicus with 10 samples.

Results

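T and NK cell genes were followed in mammary tumours of female Sprague-Dawley rats, before and after oral treatment with hydroxytyrosol, a phenolic compound of olive oil. The set holds 36 gene symbols, and a gene counted as measured where at least 1 probe set carried that symbol and no other in the platform annotation. By this rule 32 of the 36 genes were measured, with 41 probe sets, out of 14217 genes on the array. The other 4, Tbx21, Foxp3, Cd27 and Ccr7, had no such probe set and are not described. The final group is 5 tumours taken at sacrifice, at 19 weeks of age and in the 7th week after biopsy, from rats that had received 0.5 mg/kg hydroxytyrosol by gavage for 6 weeks (5 days a week). The basal group is a Trucut needle biopsy of the same 5 tumours taken before treatment from rats of 12 weeks, at a tumour size of 2 cm3. All rats of both groups had received DMBA (7,12-dimethylbenz(a)anthracene), a carcinogen that induces mammary tumours, in a single oral dose of 100 mg/kg, and the tumours profiled were chosen as Bloom-Richardson grade II. Tumours of the later age without hydroxytyrosol were not analysed here, so treatment, age, tumour growth and the kind of sample (needle core or whole tumour, as the sample labels have it) cannot be told apart in any difference between final and basal arrays. The labels name the tumours 66D2, 67D3, 45D3, 49I1 and 51I1 and do not say whether each came from a different rat. All tumours are given below in that order.

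A T cell recognises antigen through a receptor that signals through the CD3 chains and CD247, with CD4 or CD8 as a coreceptor and the kinases Lck and Zap70 passing the signal to the scaffold Lat. Cytotoxic T cells and natural killer (NK) cells kill target cells with perforin and granzymes, and regulatory T cells restrain such responses. In tumours these cells are found among the carcinoma cells and in the stroma, and transcripts of their lineage genes are commonly used as a measure of lymphocyte infiltration.

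Values are the deposited signals on the log2 scale, 1 unit being a doubling of signal. A probe set was tested where its mean over the 10 arrays lay above the dimmest 40% of all non-control probe sets, a dim cutoff of 5.14. Of the 32 measured genes 25 passed through their brightest probe set, and the text gives that probe set unless another is named. The 7 below the cutoff were Cd8b, Gzma, Gzmk, Klrd1, Ifng, Ctla4 and Cd28. The BioB spike-in, which the study used to gauge sensitivity, averaged 7.97. Among the 25 genes 20 had both group means below BioB, 2 had 1 group mean below it, and 3 had both means above it, so most differences here rest on dim signals and are left on the log2 scale. Mammary epithelial markers, 10 of 10 above the cutoff, had a mean signal between 10.91 and 11.45 in final arrays and between 10.88 and 11.42 in basal arrays. The hexokinase control, whose 3′ minus 5′ difference is larger in degraded or poorly labelled RNA, averaged 1.02 ± 0.08 in final arrays and 1.57 ± 0.60 in basal arrays (SD, n = 5 each). The largest values were those of the biopsies of 45D3 (2.36) and 67D3 (2.03).

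The T and NK cell genes shared a direction within each tumour, and the direction differed between tumours. In 66D2, 49I1 and 51I1 the median final minus basal difference over the 25 genes was 1.66, 1.06 and 1.26, and in 67D3 and 45D3 it was -1.27 and -0.98. In the final array 25 of 25 genes were higher than in the biopsy in 66D2, 24 in 49I1 and 24 in 51I1, against 1 of 25 in 67D3 and 1 in 45D3. The gene higher in 67D3 was Prf1 and that in 45D3 was Gzmb, each with both arrays of that tumour below the dim cutoff. In all, 22 of 25 genes (88.0%) were lower in 45D3 and 67D3 and higher in the other 3 tumours, a sign pattern seen in 4.67% of the 18625 probe sets tested. Of the 25 genes 15 had all 10 arrays above the dim cutoff, and in the others some of these signs rest on signals below it. The pattern was chosen after the values were seen, and genes of the same cells are not independent of each other. No gene of the 25 had the same direction in all 5 tumours, against 8.71% of all probe sets. The difference exceeded 1 log2 unit in at least 3 tumours for 20 of 25 genes (3.15% of all probe sets), and it stayed within 1 unit in every tumour for Faslg alone (82.8% of all probe sets). Faslg was dim, with signals from 4.93 to 6.08 and 3 of 5 final arrays above the dim cutoff. These are bulk samples, in which fewer cells of a type and less RNA per cell cannot be told apart.

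Averaged over the 5 tumours, the difference between final and basal samples was within the spread between tumours for every gene. The mean difference was above 0 for 22 of the 25 genes and below 0 for Zap70, Faslg and Il2rb, where 50.0% of all probe sets had a higher mean in final arrays. The median difference was 0.30 over the 25 genes and -0.00031 over all probe sets. None of the 25 passed limma's threshold over all genes, with adjusted p from 0.651 to 0.996, and 0 had an unadjusted p under 0.05, against 8.02% of all probe sets (1494). With the methods' t-test 0 of the 25 had an unadjusted p under 0.05, against 7.48% of all probe sets. Over all 18625 probe sets 0.0% passed limma's adjusted threshold. The half-width of the 95% confidence interval of a gene's mean difference ran from 0.53 to 1.79 log2 units, and the median standard error was 0.51 for the 25 genes and 0.13 for all probe sets. Final and basal arrays overlapped in 25 of 25 genes, and 1.24% of all probe sets did not overlap. Without the tumour block 1 gene, Prf1, had an unadjusted p under 0.05 in limma (5.37% of all probe sets), as under a random tumour block (8.7%), and with array weights 2 had, Prf1 and Ccl5 (17.5%). Without 45D3 there were 3, Prf1, Ccl5 and Gzmm (18.2%), and there were 0 without 66D2 (4.47%), 67D3 (4.27%), 49I1 (8.09%) or 51I1 (5.36%). Prf1, counted in these settings and among the 22 genes above 0, passed the filter only through its final arrays. Its p is therefore not read as a result in any of them.

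**Figure D1:**
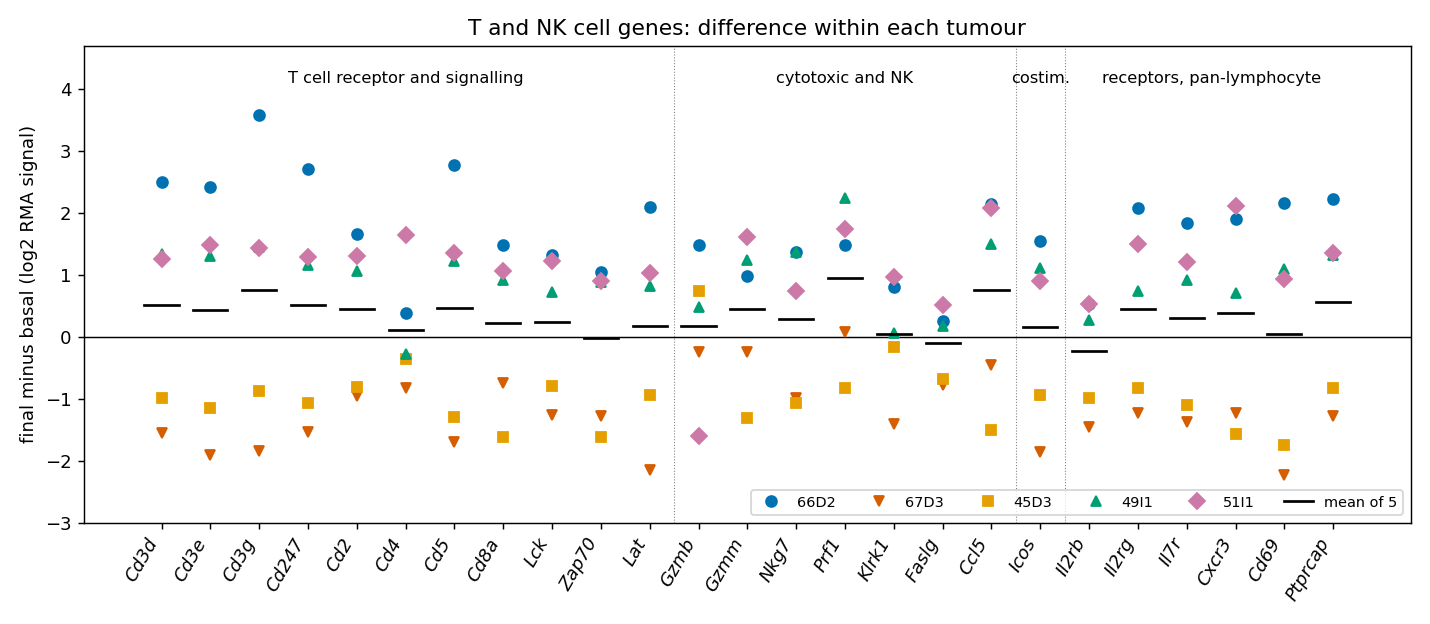
Final minus basal difference in log2 signal (y axis) of the 25 T and NK cell genes above the dim cutoff (x axis, by role), with 1 marker per tumour and a bar for the mean of the 5 tumours. Markers of 66D2, 49I1 and 51I1 lie above 0 and those of 67D3 and 45D3 below 0 for 22 genes, and the bars lie between -0.22 and 0.94 (Prf1, against biopsies that are mostly below the dim cutoff).

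The spread between tumours was wide for these genes. The SD between final arrays had a median of 0.94 over the 25 genes against 0.25 over all probe sets, and between basal arrays a median of 0.97 against 0.26. In final arrays 24 of the 25 genes, and in basal arrays 16, lay among the 10% of probe sets with the largest SD. The same few arrays held the extremes. The basal array of 66D2 was the lowest of the 5 basal arrays for 23 of 25 genes (31.4% of all probe sets) and the lowest of all 10 arrays for 18 (18.7%). The final array of 67D3 was the lowest final array for 20 genes (26.5%), the final array of 51I1 the highest final array for 23 (13.5%) and the highest of all 10 for 23 (8.34%), and the basal array of 45D3 the highest basal array for 19 (23.5%). The mean signal over the 25 genes was 7.22, 5.96, 6.49, 7.71 and 8.25 in the final arrays of the 5 tumours, against 5.51, 7.18, 7.46, 6.76 and 7.11 in their basal arrays. The low point of the series was thus an untreated biopsy and the high point a treated tumour, while the second lowest was also a treated tumour.

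Among the genes of the T cell receptor complex, Cd3g, Cd3d and Cd3e lie beside each other on chromosome 8 of the GRCr8 assembly (54177572 to 54184087, 54184573 to 54190112 and 54200617 to 54211770). Cd3g, the gamma chain of CD3, had signals of 8.87, 6.92, 8.06, 9.57 and 9.88 in final arrays, against 5.29, 8.76, 8.93, 8.12 and 8.44 in basal arrays. The biopsy of 66D2 was near the dim cutoff while its final tumour was above BioB, and the final tumour of 67D3 was below every biopsy but that of 66D2. The mean difference was 0.75 (SE 0.75, 95% interval -1.04 to 2.54, limma adjusted p = 0.812), and the groups overlapped. Without 66D2 the mean difference was 0.041, and the highest value with another tumour left out was 1.40. Cd3e, the epsilon chain, had 8.56, 6.78, 7.85, 9.36 and 9.76 in final arrays, against 6.13, 8.69, 9.0, 8.06 and 8.28 in basal arrays, a mean difference of 0.43 (SE 0.65, limma adjusted p = 0.873). Its order of the tumours was that of Cd3g in both groups. A second probe set of Cd3e differed by 0.97, with the same sign as the brightest in 5 of 5 tumours. Cd3d, the delta chain, had 7.77, 6.21, 7.11, 8.50 and 9.07 in final arrays, against 5.27, 7.77, 8.09, 7.16 and 7.82 in basal arrays (mean difference 0.51, SE 0.60, limma adjusted p = 0.838), and without 66D2 its mean difference was 0.014. All 3 CD3 chains were thus lower in 45D3 and 67D3 and higher in the other 3 tumours. Cd247, the zeta chain that carries most of the receptor's signalling motifs, had 6.98, 5.43, 6.32, 7.75 and 8.16 in final arrays, against 4.26, 6.96, 7.39, 6.59 and 6.87 in basal arrays (mean difference 0.51, SE 0.62, limma adjusted p = 0.845). The 66D2 biopsy alone lay under the dim cutoff for this gene, and final and basal arrays overlapped.

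The start regions of the measured genes were compared because most genes above the cutoff shared their directions. RefSeq windows of 300 bases (250 before and 50 after the annotated start, GRCr8) were held for 25 of the 32 measured genes. These are not the 25 genes above the dim cutoff, since the dim genes Cd28, Ctla4, Gzma, Gzmk and Ifng are among them. The windows of Cd3d and Cd3e are shown as linked genes of the receptor, and those of Prf1 and Gzmb as the main effector genes of killing. Gzmb did not have the sign pattern that most genes above the cutoff shared. Prf1 lacked it only through 67D3, where both its arrays lay below the dim cutoff and no direction is read. Capitals mark GGAAGT, a string that ETS family factors bind, and TGTGGT, a string of RUNX family factors, on either strand. The windows, 5′ to 3′ on the gene's strand, are those at chr8:54185269-54185568 (plus) for Cd3d, chr8:54211721-54212020 (minus) for Cd3e, chr20:29788790-29789089 (plus) for Prf1 and chr15:34462420-34462719 (minus) for Gzmb. The window of Cd3d is placed on a start 946 bases inside the outermost start that RefSeq lists for the gene.
Cd3d: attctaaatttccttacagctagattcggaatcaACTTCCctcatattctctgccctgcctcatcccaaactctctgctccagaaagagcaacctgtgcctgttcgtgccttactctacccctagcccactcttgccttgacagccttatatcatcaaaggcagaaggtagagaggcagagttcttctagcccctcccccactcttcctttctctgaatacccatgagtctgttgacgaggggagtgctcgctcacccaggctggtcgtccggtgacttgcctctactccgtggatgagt
Cd3e: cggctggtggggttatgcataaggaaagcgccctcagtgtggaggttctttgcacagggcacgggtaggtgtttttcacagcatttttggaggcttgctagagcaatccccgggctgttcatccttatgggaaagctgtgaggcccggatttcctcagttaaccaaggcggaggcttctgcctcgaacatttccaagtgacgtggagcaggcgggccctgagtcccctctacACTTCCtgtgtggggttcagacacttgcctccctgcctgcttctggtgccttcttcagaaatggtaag
Prf1: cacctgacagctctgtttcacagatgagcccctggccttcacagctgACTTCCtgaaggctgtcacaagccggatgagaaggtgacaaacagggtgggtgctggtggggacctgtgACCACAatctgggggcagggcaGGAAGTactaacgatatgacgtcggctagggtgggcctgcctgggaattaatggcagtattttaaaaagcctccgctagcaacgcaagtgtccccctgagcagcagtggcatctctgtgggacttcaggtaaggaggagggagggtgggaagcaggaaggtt
Gzmb: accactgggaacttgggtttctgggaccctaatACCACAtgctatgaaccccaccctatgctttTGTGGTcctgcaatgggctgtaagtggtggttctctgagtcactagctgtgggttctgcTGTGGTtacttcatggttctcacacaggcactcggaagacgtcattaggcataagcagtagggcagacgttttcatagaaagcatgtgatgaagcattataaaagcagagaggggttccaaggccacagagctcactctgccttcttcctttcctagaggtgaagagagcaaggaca
The GGAAGT string stood in the windows of 11 of the 25 genes with a window, against 22.6% of the 33469 windows in the table, and TGTGGT in 12 of 25, against 17.3%. The windows of Cd3d and Cd3e held the ETS string (1 match each) and not the RUNX string, that of Gzmb the RUNX string (3 matches) and not GGAAGT, and that of Prf1 both. These 2 strings were chosen for printing from 9 that were searched, after the counts were seen. A second ETS string, AGGAAG, which can overlap GGAAGT, stood in 16 of 25, Gzmb included (34.5% of all windows), the E-box CAGNTG in 20 (50.2%), the NF-kB string (GGGA, any 4 bases, then CC) in 5 (19.3%), the NFAT string GGAAAA in 3 (24.7%), the GATA string AGATAA in 1 (11.6%), the AP-1 string TGANTCA in 2 (7.33%) and the T-box string AGGTGTGA in 0 (1.1%). A match is a string of letters and not a measured binding site, and no relation of these strings to the signals was tested.

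The coreceptors differed from each other in how they followed the CD3 chains. Cd8a, the alpha chain of CD8 on cytotoxic T cells, had 5.59, 4.96, 5.44, 6.36 and 7.37 in final arrays, against 4.11, 5.70, 7.05, 5.44 and 6.30 in basal arrays. Its mean difference was 0.22 (SE 0.47, limma adjusted p = 0.916), with the signs of the CD3 chains in all 5 tumours. The biopsy of 66D2 (4.11) and the final array of 67D3 (4.96) lay below the dim cutoff for Cd8a. Of its 3 probe sets the 2 above the cutoff had the same sign in 5 of 5 tumours. Cd8b, the beta chain, was dim, with 4.98, 4.50, 5.02, 5.08 and 6.06 in final arrays, against 4.09, 4.69, 5.20, 4.76 and 5.89 in basal arrays. It reached the dim cutoff in 1 final and 2 basal arrays, so no difference is read from it. Cd4, the coreceptor of helper T cells, which macrophages and monocytes of the rat also carry, had 6.62, 6.01, 6.40, 6.37 and 8.11 in final arrays, against 6.23, 6.84, 6.75, 6.65 and 6.46 in basal arrays. Basal arrays of Cd4 lay close together (SD 0.25), and the final array of 51I1 was the highest by far. The mean difference was 0.12 (SE 0.34, limma adjusted p = 0.943). Cd4 was the only gene of the receptor group without the common sign pattern. In 49I1 it was lower by 0.28 in the final array while the median of the receptor group was 1.06 higher. The 12 macrophage markers had a median difference of -0.54 in 49I1, with 1 of 12 higher, and their signs in the other 4 tumours were those of Cd4. Whether the Cd4 signal came from T cells or from macrophages was not tested.

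Genes of receptor signalling and adhesion followed the CD3 chains. Lck, the kinase bound to the coreceptors, had 8.86, 7.64, 8.39, 9.39 and 9.94 in final arrays, against 7.53, 8.89, 9.18, 8.67 and 8.71 in basal arrays (mean difference 0.25, SE 0.42, limma adjusted p = 0.893). It lay above BioB in 4 of 5 arrays of each group and, like the CD3 chains, was lowest in the 66D2 biopsy. Zap70, the kinase recruited to the phosphorylated CD3 chains, differed by -0.01, with tumour values of 1.04, -1.28, -1.61, 0.89 and 0.90. Lat, the membrane scaffold, differed by 0.17 (2.10, -2.16, -0.94, 0.83 and 1.03), Cd2, an adhesion receptor, by 0.46 (1.66, -0.95, -0.80, 1.06 and 1.31), and Cd5, a brake on receptor signalling, by 0.47 (2.78, -1.70, -1.30, 1.22 and 1.36). Each of these 5 genes was higher in 3 tumours and lower in 2. The group as a whole, 11 genes above the cutoff of 12, had a median difference of 0.43 and tumour medians of 2.10, -1.53, -0.98, 1.06 and 1.29. Without 66D2 the group median was -0.04, and without 67D3 it was 0.81.

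**Figure D2:**
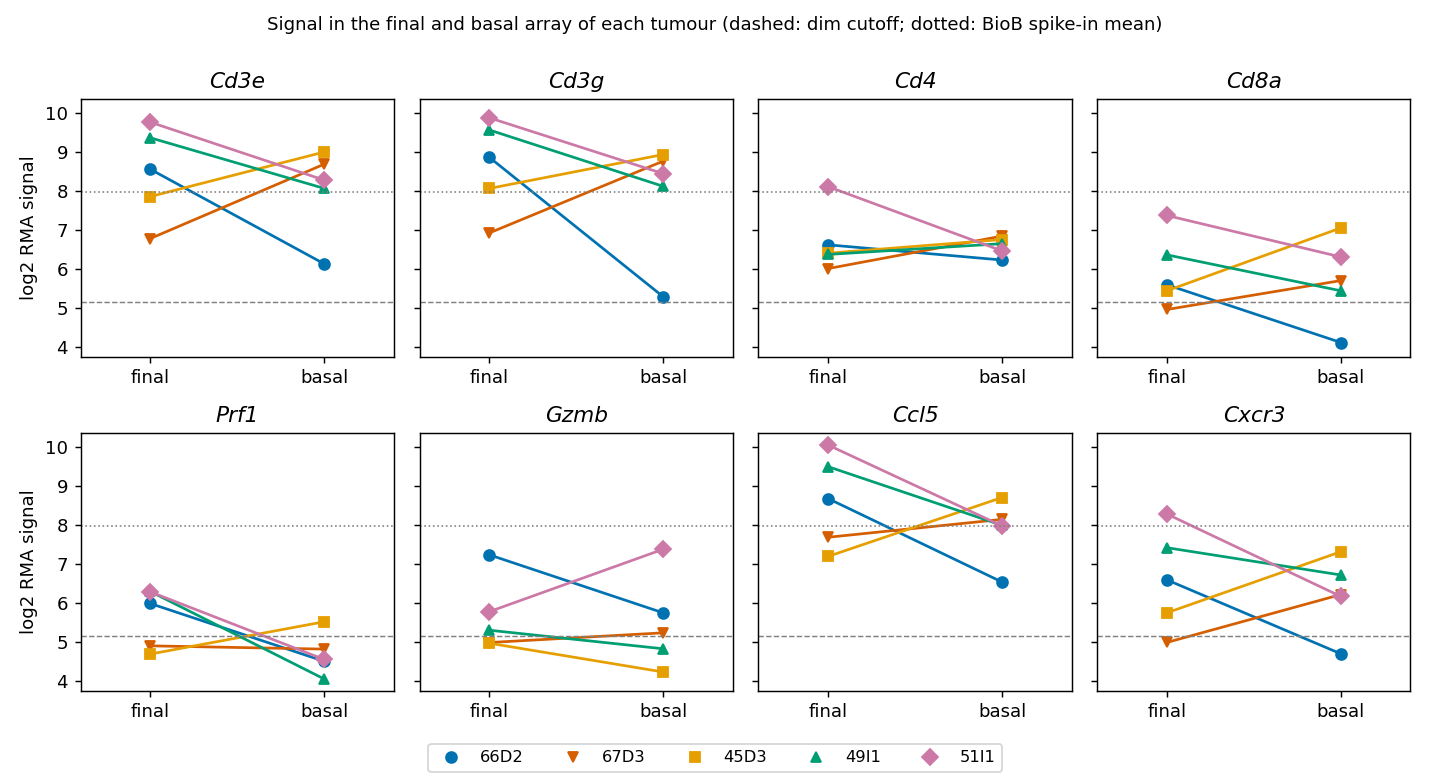
Log2 signal (y axis) of 8 genes in the final and basal array of each tumour (x axis), a line joining the arrays of a tumour; the dashed line is the dim cutoff (5.14) and the dotted line the BioB mean (7.97). For Cd3e, Cd3g, Cd8a, Ccl5 and Cxcr3 3 lines are higher in the final array and 2 are lower, Cd4 has its largest differences in 51I1 (1.65) and 67D3 (-0.83), and Gzmb is lower in the final array of 51I1 (both its 45D3 arrays are below the dim cutoff).

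The median of the cytotoxic and NK genes had the sign of the receptor group's median in each of the 5 tumours, and 5 of the 7 genes above the cutoff had the common sign pattern. Of 12 genes 11 were measured and 7 lay above the cutoff, with a median difference of 0.28 and tumour medians of 1.37, -0.46, -0.83, 1.25 and 0.96. Nkg7, a granule membrane protein of cytotoxic cells, had 6.48, 5.39, 5.36, 6.97 and 7.16 in final arrays, against 5.11, 6.38, 6.43, 5.60 and 6.43 in basal arrays (mean difference 0.28, SE 0.43, limma adjusted p = 0.877). It had the common sign pattern, and so had Gzmm, a granzyme of NK and T cells, with a mean difference of 0.46 and tumour values of 0.99, -0.25, -1.30, 1.25 and 1.61. Ccl5, a chemokine that activated T and NK cells secrete, had 8.68, 7.69, 7.19, 9.50 and 10.05 in final arrays, against 6.54, 8.15, 8.71, 7.99 and 7.98 in basal arrays (mean difference 0.75, SE 0.58, 95% interval -0.63 to 2.13, limma adjusted p = 0.756). Final tumours of 49I1 and 51I1 were above every biopsy for Ccl5 and that of 45D3 was below every biopsy but that of 66D2.

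Prf1, perforin, which forms pores in target cells, was dim in most biopsies. Its signals were 5.99, 4.90, 4.69, 6.30 and 6.29 in final arrays, against 4.50, 4.82, 5.52, 4.05 and 4.55 in basal arrays. The final arrays of 66D2, 49I1 and 51I1 were above all 5 biopsies, and the other 2 final arrays were below the dim cutoff. The measured difference was 0.94 (SE 0.45, 95% interval -0.13 to 2.02, limma adjusted p = 0.651, unadjusted p = 0.0762). Because 4 of the 5 biopsies and the basal mean of 4.69 lay below the dim cutoff, the difference is stated against that cutoff as at least 0.49, and Prf1 passed the filter only through its final arrays. Neither its p nor its place among the genes is therefore read as a result, here or under other settings. In 67D3 both arrays lay below the cutoff, so no direction is given for that tumour.

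Gzmb, granzyme B, which sets off apoptosis in the target cell, differed from the rest in 51I1. It had 7.24, 4.98, 4.97, 5.30 and 5.77 in final arrays, against 5.75, 5.23, 4.23, 4.82 and 7.38 in basal arrays. The 2 highest signals were those of the final array of 66D2 and the biopsy of 51I1. In 51I1 Gzmb was thus lower by 1.60 in the final array, while 24 of the 25 genes were higher. Its mean difference was 0.17 (SE 0.41, limma adjusted p = 0.929), and its tumour differences lay a root mean square of 1.58 from the median of the 25 genes, against 0.13 for Il7r, the closest gene, and 0.92 for Cd3g, the second farthest. Part of that distance comes from 45D3, where both Gzmb arrays lay below the dim cutoff. Gzma, another granzyme, was below the cutoff by its mean, with 6.61, 4.76, 4.26, 4.16 and 5.16 in final arrays, against 5.51, 3.97, 4.48, 4.07 and 5.18 in basal arrays. Its arrays above the cutoff were both those of 66D2 and 51I1, the tumours where Gzmb was brightest.

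Klrk1 (NKG2D), an activating receptor, differed by 0.05 (0.80, -1.41, -0.16, 0.06 and 0.96). Faslg, the ligand of the death receptor Fas, differed by -0.10 (0.26, -0.78, -0.68, 0.17 and 0.52). Its basal arrays had an SD of 0.11 at a mean signal of 5.61, near the dim cutoff. Klrd1 (CD94), which pairs with NKG2 receptors, had a mean below the cutoff, with 5.16, 4.57, 3.90, 5.44 and 6.28 in final arrays, against 4.43, 4.81, 6.42, 4.06 and 4.43 in basal arrays. The final arrays of 66D2, 49I1 and 51I1 and the biopsy of 45D3 lay above the cutoff. Klrd1 had a mean difference of 0.24, which ran from -0.16 (without 51I1) to 0.93 (without 45D3) as each tumour was left out. No difference is therefore read from it. Gzmk, a granzyme of memory T cells, was likewise below the cutoff, with 4.84, 4.47, 4.37, 5.37 and 5.63 in final arrays, against 4.48, 5.07, 5.88, 4.17 and 4.31 in basal arrays. Its arrays above the cutoff were the final ones of 49I1 and 51I1 and the biopsy of 45D3. Ifng, interferon gamma, had 3.27, 3.07, 3.0, 3.39 and 3.27 in final arrays, against 3.25, 3.01, 2.97, 2.97 and 3.14 in basal arrays. All 10 of these lay below the dim cutoff, so the array gives no level for Ifng.

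Regulatory and costimulatory genes were represented above the cutoff by Icos alone. Icos, a costimulatory receptor of activated and regulatory T cells, had 6.89, 5.74, 6.53, 7.60 and 8.16 in final arrays, against 5.34, 7.60, 7.47, 6.48 and 7.26 in basal arrays (mean difference 0.15, SE 0.52, limma adjusted p = 0.951). It had the common sign pattern, and a second probe set above the cutoff had the same sign in 5 of 5 tumours. Ctla4, an inhibitory receptor of activated and regulatory T cells, had 4.79, 4.75, 4.71, 5.11 and 5.24 in final arrays, against 4.89, 5.55, 5.24, 5.16 and 5.21 in basal arrays. These signals hug the dim cutoff, which 1 final and 4 basal arrays reached. Cd28, the main costimulatory receptor, was below the cutoff in all 10 arrays. With Foxp3 not measured, the arrays hold no defining marker of regulatory T cells in this set.

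Cytokine and chemokine receptors and pan-lymphocyte genes, 6 of 7 above the cutoff, all had the common sign pattern. Il7r, the receptor chain for the survival cytokine interleukin-7, had 6.73, 5.94, 6.26, 7.07 and 7.75 in final arrays, against 4.88, 7.32, 7.37, 6.14 and 6.54 in basal arrays (mean difference 0.30, SE 0.51, limma adjusted p = 0.892). Cxcr3, the receptor by which activated T cells follow interferon-induced chemokines, had 6.59, 4.99, 5.75, 7.42 and 8.28 in final arrays, against 4.69, 6.22, 7.32, 6.72 and 6.17 in basal arrays (mean difference 0.38, SE 0.60, limma adjusted p = 0.880). For both, the 66D2 biopsy was the lowest of all 10 arrays and the final 51I1 tumour the highest. Il2rg, the chain shared by receptors of several interleukins, differed by 0.45 (2.08, -1.23, -0.83, 0.75 and 1.49), and Il2rb, the chain for interleukins 2 and 15, by -0.22 (0.54, -1.46, -0.99, 0.28 and 0.53). Cd69, an early activation antigen, differed by 0.04 (2.16, -2.23, -1.74, 1.09 and 0.93), and Ptprcap, a protein bound to the phosphatase CD45, by 0.56 (2.22, -1.27, -0.82, 1.33 and 1.35). The group median was 0.34, with tumour medians of 1.99, -1.32, -1.05, 0.84 and 1.28.

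Other T and NK cell genes, outside the set, had list medians with the signs of the set in each tumour, though many single genes did not follow them. Of 25 further T cell genes 15 lay above the cutoff, 11 with a higher and 4 with a lower mean in final arrays, 0 past limma's adjusted threshold and 0 at an unadjusted p under 0.05. Their tumour medians were 0.61, -0.30, -0.63, 0.51 and 0.84, and 8 of 15 had the common sign pattern, 5 of 15 being higher in 67D3. Those with the smallest p were Lef1, a transcription factor that epithelial cells also express (mean difference -0.36, and lower by 1.23 in 66D2), Cd7 (0.38), Bcl11b, a T lineage transcription factor (0.56), and Prkcq, a kinase of T cell receptor signalling (0.62). Of 20 further NK and cytotoxic genes 9 lay above the cutoff, with tumour medians of 0.67, -0.61, -0.79, 0.46 and 0.76, 5 with a higher and 4 with a lower mean, 6 of 9 with the common sign pattern and 0 past either threshold. Lgals1, a galectin that stromal cells also make, differed by 0.60, Stat4, a transcription factor of interleukin-12 signalling, by 0.32, Srgn, a granule proteoglycan that mast cells also make, by -0.30 and the chemokine Xcl1 by 0.25. Of 16 checkpoint and regulatory genes 6 lay above the cutoff, 5 with a higher and 1 with a lower mean, 2 of 6 with the common sign pattern and 0 past either threshold. Tgfb1 differed by 0.27, Entpd1 by 0.22 and Tnfrsf4 by 0.20. Ikzf2, counted among the 5, had a basal mean of 5.08, below the dim cutoff, and 2 arrays of each group above it. Its difference is stated against that cutoff as at least 0.12 and is not read as a result.

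Ligands of the receptors did not all follow the lymphocyte genes. Of 14 ligands 9 lay above the cutoff, 7 with a higher and 2 with a lower mean in final arrays and 0 past either threshold, and 3 had the common sign pattern. Ccl21, a chemokine of lymphatic vessels and lymph nodes that draws cells bearing Ccr7, had 8.93, 11.42, 5.73, 8.83 and 11.32 in final arrays, against 4.12, 5.96, 9.63, 7.30 and 6.13 in basal arrays. It was higher in 4 tumours, by 5.46 in 67D3, where the T cell genes were lower, and lower by 3.90 in 45D3 (mean difference 2.62, SE 1.38, limma adjusted p = 0.661). Cxcl11, a ligand of Cxcr3, had 8.45, 7.18, 5.38, 6.57 and 8.10 in final arrays, against 5.23, 6.76, 5.95, 6.23 and 6.65 in basal arrays (mean difference 0.97, SE 0.51, limma adjusted p = 0.659). The final arrays of 66D2, 67D3 and 51I1 were above every biopsy for Cxcl11. Icoslg differed by 0.17 and Il7 by 0.21.

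Targets of interferon gamma and genes of class I presentation had small median differences. Of 14 genes 11 lay above the cutoff, 7 with a higher and 4 with a lower mean, 0 past either threshold, and 2 had the common sign pattern. Their tumour medians were 0.32, -0.20, -0.01, 0.01 and 0.04, against 1.66, -1.27, -0.98, 1.06 and 1.26 for the 25 T and NK cell genes. Irf1, a transcription factor induced by interferon, differed by 0.29, Gbp4 by 0.31, Irf8, which macrophages and B cells also express, by -0.26 and the peptide transporter Tap1 by 0.11. In single tumours some of them moved more, Irf8 by -1.14 in 67D3 and Gbp4 by 1.03 in 51I1.

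Markers of other leukocytes were set beside the T and NK cell genes. The 10 pan-leukocyte genes above the cutoff, of 11 listed, had tumour medians of 1.40, -1.33, -0.67, 0.58 and 1.19, and 8 of 10 had the common sign pattern. Their mean signal ran from 7.58 to 9.61 in final arrays and from 7.44 to 8.97 in basal arrays. Macrophage markers, 12 of 15 above the cutoff, had tumour medians of 0.83, -0.86, -0.64, -0.54 and 0.99, a mean signal from 8.74 to 10.42 in final arrays and from 8.62 to 9.61 in basal arrays, and 1 of 12 had the common sign pattern. Macrophage and T cell genes thus had the same direction in 4 tumours and opposite directions in 49I1. Dendritic cell markers, 4 of 8 above the cutoff, had tumour medians of 0.31, -1.27, -0.51, -0.25 and 0.88. Of 13 B and plasma cell markers 10 were measured and 2, Fcrla and Jchain, lay above the cutoff, with tumour medians of -0.02, -0.71, -1.06, 1.09 and 0.07. Mast cell markers, 8 of 8 above the cutoff, had tumour medians of -0.61, -3.05, 0.03, -0.85 and 0.21, the lowest in 67D3, and a mean signal from 5.11 to 9.41 in final arrays and from 5.63 to 9.53 in basal arrays. Neutrophil markers, 4 of 9 above the cutoff, had tumour medians of 2.01, -0.36, -0.04, 0.63 and 0.40, the highest in 66D2. Whether these cell types had a part in the differences of the T and NK cell genes was not tested.

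**Figure D3:**
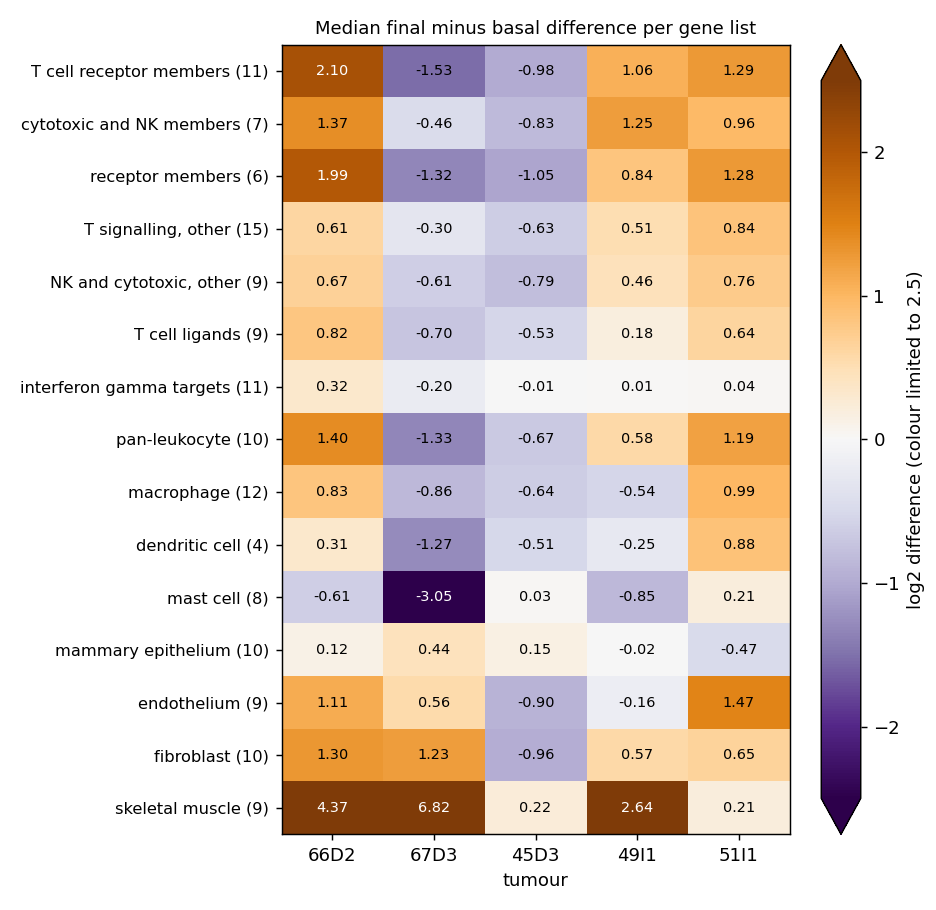
Median final minus basal difference in log2 signal for 15 gene lists (rows, number of genes above the dim cutoff in brackets) in each tumour (columns). The T cell receptor, cytotoxic, receptor and pan-leukocyte rows are negative in 45D3 and 67D3 and positive in the other 3 tumours, while the macrophage row is negative in 49I1. The skeletal muscle row is positive in all 5 tumours, but its medians in 45D3 (0.22) and 51I1 (0.21) rest in part on signals below the dim cutoff.

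Tissue markers and RNA quality also differed between the arrays of a tumour. Skeletal muscle markers, 9 of 10 above the cutoff, had a mean signal from 5.44 to 11.90 in final arrays and from 5.23 to 5.97 in basal arrays. Their tumour medians were 4.37, 6.82, 0.22, 2.64 and 0.21, and 7 of 9 had an unadjusted p under 0.05 in limma (8.02% of all probe sets). Among those 7, Tnnc2, Mb and Tnnt3 had every biopsy below the dim cutoff and passed the filter only through final arrays. Their p is therefore not read as a result, and neither is the count of 7 that holds them. Against the cutoff their mean differences are at least 2.51, 2.00 and 1.65. Fibroblast markers (10 of 10) had tumour medians of 1.30, 1.23, -0.96, 0.57 and 0.65, and mammary epithelial markers of 0.12, 0.44, 0.15, -0.02 and -0.47. Adipocyte markers (7 of 11 above the cutoff) had tumour medians of 0.47, 2.13, -0.96, 0.15 and 2.78, and endothelial markers (9 of 10) of 1.11, 0.56, -0.90, -0.16 and 1.47. Both were higher in 66D2 and 51I1 and lower in 45D3, as the T and NK cell genes were, and higher in 67D3, where those were lower. Their part in the result was not tested. The tumours with a large muscle difference, 66D2, 67D3 and 49I1, held T and NK cell genes that were higher (66D2 and 49I1) and lower (67D3). The part of muscle tissue in the result was not tested. The hexokinase difference of the final array minus that of the biopsy was 0.11, -1.02, -1.47, -0.09 and -0.27. The 2 tumours in which it dropped most, 67D3 and 45D3, were the 2 in which the T and NK cell genes were lower.

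With the hexokinase difference as a covariate beside the tumour block, 25 of 25 genes had a positive final minus basal difference, from 0.23 to 2.31 with a median of 1.41, where 44.1% of all probe sets were above 0. In that fit 20 of the 25 had an unadjusted p under 0.05, against 13.8% of all probe sets, and 0 passed the adjusted threshold (limma, adjusted p from 0.100 to 0.880). Prf1, among the 20, passed the filter only through its final arrays, and its p is not read as a result. Without the covariate the same count was 0 of 25. Ccl5 had the smallest p with the covariate, with a difference of 2.06 (SE 0.22, limma adjusted p = 0.100), and Cd8a followed with 1.30 (SE 0.15, limma adjusted p = 0.111). The covariate values are those of 5 tumours, and 67D3 and 45D3 hold nearly all of their spread, so in this fit the covariate and those 2 tumours cannot be told apart.

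**Figure D4:**
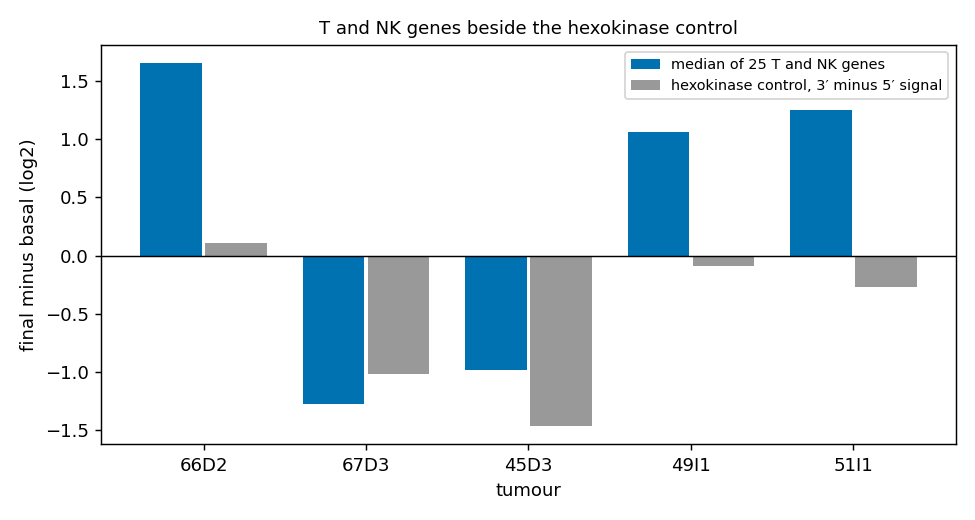
Final minus basal difference (y axis, log2) per tumour (x axis) of the median of the 25 T and NK cell genes and of the hexokinase 3′ minus 5′ control. Both bars are below -0.9 in 67D3 and 45D3, and in the other 3 tumours the gene median is above 1 while the control lies between -0.27 and 0.11.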

How the data were processed

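Per the labels' protocols, biotin-labelled RNA of frozen tumours was run on Affymetrix rat expression arrays. The authors deposited intensities normalised by Robust Multichip Average (RMA), per the series' design text and the submitters' processing notes, and the deposited values were read as log2 from their range and near-equal medians. Per the design text control and dim probe sets were filtered, yet 57 controls stood among the 31099 probe sets deposited. After RMA all arrays share a distribution, which hides any change in total RNA per cell. For RMA no version is named in the labels.

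Of 31042 non-control probe sets the annotation of 2016 gave 1 symbol to 20826, several to 436 and none to 9780. The dimmest 40% were left out, which kept 18625. In R 4.3.3, limma 3.58.1 (lmFit, eBayes) gave final minus basal differences with Benjamini-Hochberg adjustment over the probe sets kept (threshold 0.05). The tumour was a block, since both arrays of a tumour carry its identifier in the labels. Across probe sets, the correlation of a tumour's 2 arrays, each taken as its deviation from the group mean, was 0.72 for 66D2, 0.47 for 67D3, -0.16 for 45D3, 0.29 for 49I1 and 0.17 for 51I1. The fit was tested on simulated data, with a spread capped below that of the T and NK cell genes and planted changes larger than their mean differences. That test therefore does not measure how well differences of these genes would be found. Where nothing says that samples are separate animals, p-values measure the spread between these tumours only. Precision is limited by the number of arrays, which have no read depth. The members, gene lists and tests were chosen with earlier results of these data known. Named by rule were all members, with array values for the receptor, coreceptor, main effector and costimulatory genes, and up to 4 genes with the smallest p from each list outside the set. Alternatives covered the block, the filter, the scaling, array weights, probe set choice, each tumour left out and the hexokinase control as a covariate.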

Additional observations from a re-analysis of the deposited data

Results flagged for a closer look

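In 64 groups of 5 arrays (32 genes, final and basal), 5 held an array that stood apart from the other 4, where chance gives about 1 in 20. The count is not far from that share and is not read as a result about these genes. The biopsy of 66D2 was far below the other biopsies for Cd3g (5.29, the nearest other at 8.12), Cd247 (4.26, nearest 6.59), Lat (5.35, nearest 7.49) and Il2rg (6.60, nearest 8.44). The final array of 51I1 was above the other final arrays for Cd4 (8.11, nearest 6.62), by a gap of 0.71 of the range, which only just met the limit used (0.71). Genes of the same cells move together, so the 4 results on the 66D2 biopsy are not independent of each other. The cause was not tested.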

How the results depend on the processing

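No setting brought a gene of the set past the adjusted threshold in limma or in the methods' t-test. Of 18625 probe sets, 3254 (17.5%) had an unadjusted p under 0.05 with array weights and 2564 (13.8%) with the hexokinase covariate, against 1494 (8.02%) in the main fit. With that covariate 2 passed the adjusted threshold. Without the filter there were 2276 of 31042 probe sets, and with a BioB filter 680 of fewer probe sets. The last 2 counts come from other totals and are not set against 1494. Genes of the set at that level numbered 2 of 25 with array weights (8.0%, Prf1 and Ccl5) and 20 with the hexokinase covariate (80.0%), against 0 in the main fit. There was 1, Prf1, without the replicate block (5.37% of all probe sets) and with the tumour as a random block (8.7%). Leaving out 1 tumour gave 795 (4.27%, without 67D3) to 3383 (18.2%, without 45D3) probe sets and 0 to 3 genes of the set (Prf1, Ccl5 and Gzmm without 45D3). As above, the p of Prf1 is not read as a result in any of these settings. The block changed no other call. Zap70 turned positive with array weights (0.36), the hexokinase covariate (1.04) and the mean of its probe sets (0.058), Faslg with array weights (0.023) and that covariate (0.32), and Il2rb with that covariate (0.46).

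Leaving out each tumour in turn changed the sign of the mean difference for 16 of 25 genes, 11 of them without 66D2. Such changes were not counted over all probe sets, so the count does not set these genes apart from others. The differences then ran from -0.27 to 0.39 for Zap70, -0.26 to 0.066 for Faslg, -0.41 to 0.088 for Il2rb, -0.067 to 1.02 for Cd3e, -0.038 to 1.02 for Cd247, -0.27 to 0.35 for Cd4, -0.10 to 1.02 for Cd5, -0.092 to 0.68 for Cd8a, -0.025 to 0.62 for Lck, -0.31 to 0.75 for Lat, -0.16 to 0.61 for Gzmb, -0.17 to 0.42 for Klrk1, -0.20 to 0.66 for Icos, -0.086 to 0.72 for Il7r, -0.050 to 0.87 for Cxcr3 and -0.49 to 0.61 for Cd69. With the hexokinase covariate the group medians were 1.41 (T cell receptor), 1.26 (cytotoxic), 1.24 (Icos) and 1.52 (receptors), against 0.43, 0.28, 0.15 and 0.34, and with array weights 0.80, 0.63, 0.51 and 0.79. In the same order they were -0.038, 0.012, -0.20 and -0.041 without 66D2, 0.81, 0.60, 0.66 and 0.75 without 67D3, 0.77, 0.62, 0.43 and 0.71 without 45D3, 0.22, 0.094, -0.091 and 0.22 without 49I1, and 0.17, 0.17, -0.036 and 0.011 without 51I1. With the BioB filter or the dimmest 60% left out, the cytotoxic median was 0.75 and the regulatory group had no value. The causes were not tested.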

Other observations

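Lymphotoxin beta (Ltb), a cytokine of lymphocytes that organises lymphoid tissue, stood outside the set and had the same sign pattern, with 7.74, 6.05, 7.18, 8.93 and 9.31 in the final arrays of 66D2, 67D3, 45D3, 49I1 and 51I1, against 5.66, 7.54, 8.21, 7.29 and 7.69 in the biopsies. Its mean difference was 0.56 (SE 0.59, limma adjusted p = 0.820). Cxcl13, a chemokine of lymphoid follicles, had 9.26, 6.60, 8.18, 8.33 and 10.91 in final arrays, against 8.33, 8.14, 8.81, 8.62 and 8.96 in basal arrays, and was highest in the final 51I1 tumour, as 23 of the 25 T and NK cell genes were. In 49I1 it was lower in the final array, unlike Ltb. Glycam1, a mucin of lymph node vessels and of the milk-secreting gland, had 7.57, 6.95, 5.94, 5.22 and 5.10 in final arrays, against 10.11, 8.27, 5.12, 10.24 and 6.28 in basal arrays, lower in 4 of 5 tumours (unadjusted p = 0.0441, limma adjusted p = 0.614), without the sign pattern of the T and NK cell genes.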
